A study of Mus musculus with 2 samples.

Results

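The 9 mouse genes described here make, break down or sense prostaglandins: Ptgs1, Ptgs2, Ptges, Ptgis, Ptgds, Hpgd, Ptger2, Ptger3 and Ptger4. They were taken by symbol from the 27998 genes of a 3′ single-cell RNA sequencing study of mouse pancreas, and all 9 were listed in both libraries. The tumor library, labelled as cancer-associated fibroblasts (CAFs), came from orthotopic FC1245 pancreatic ductal adenocarcinoma grown for 21 days in mice implanted at 8 weeks of age, and its cells were sorted for GFP and PDPN. The normal library, labelled as pancreatic stellate cells (PSCs), came from healthy pancreata at 6 to 9 weeks, and its cells were sorted for GFP alone. All mice carried Rosa26-mTmG and Fabp4-Cre, an allele pair in which any cell that has used the Fabp4 promoter becomes GFP-positive. Each group was 1 library, so nothing here is a test of tumor against normal: every interval covers counting error at the 95% level only, and the spread between mice is unknown. The 2 tissues were also digested with different enzymes, so digestion, gate and group cannot be told apart.

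Prostaglandins are short-lived lipid mediators made from arachidonic acid that phospholipases release from membranes. Cyclooxygenases turn arachidonic acid into prostaglandin H, a terminal synthase then makes one product (prostaglandin E, prostacyclin or prostaglandin D, among others), and receptors on the same or neighbouring cells read it until it is taken up and oxidised. In tumours, fibroblasts and myeloid cells are well-known sources of prostaglandin E, which acts on blood vessels, immune cells and epithelium.

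The tumor library gave 2520 cells after filtering and the normal library 4515, with medians of 10156.5 and 7045 UMIs (unique molecular identifiers, each counting 1 captured RNA molecule) per cell. Fibroblast-like cells, named from 23 marker genes that summed to 46478 CPM (UMIs scaled to a total of 1000000) in tumor cells and 52648 CPM in normal cells, made up 2194 cells (87.1%) of the tumor library and 1469 cells (32.5%) of the normal library. The label of stellate cells thus covered a mixture, since the tumor library held 53 macrophage- or monocyte-like and 6 endothelial-like cells, and the normal library 1399 and 1346. Fibroblast-like cells of the 2 libraries fell mostly into different clusters, called here by their leading gene. The libraries were clustered together without batch correction, and the part of a library effect in this split was not tested. Tumor cells lay in the Sfrp4 (743 cells), Apod (546), Thbs4 (490) and Calca (384) clusters, and normal cells in the Tenm4 (1047) and Efhd1 (372) clusters. Cells with a UMI of any of 4 Y-linked genes numbered 0 in the tumor library and 1979 in the normal library, so the normal cells came in part from male mice, and sex differs between the libraries along with tissue state. Only 4 barcodes occurred in both deposited lists.

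The 300-base windows around the annotated starts of Ptgs2, Hpgd and Ptgs1 are shown because, among member enzymes that reached 10 CPM, these 3 differed most between tumor and normal fibroblast-like cells. The letters are from RefSeq on GRCm38.p6, run 5′ to 3′ on the plus strand, which is the coding strand of all 3 genes, and hold 250 bases before and 50 after the start; capitals mark motif matches. The windows are chr1:150099781-150100080 for Ptgs2, chr8:56294302-56294601 for Hpgd and chr2:36230176-36230475 for Ptgs1.
Ptgs2: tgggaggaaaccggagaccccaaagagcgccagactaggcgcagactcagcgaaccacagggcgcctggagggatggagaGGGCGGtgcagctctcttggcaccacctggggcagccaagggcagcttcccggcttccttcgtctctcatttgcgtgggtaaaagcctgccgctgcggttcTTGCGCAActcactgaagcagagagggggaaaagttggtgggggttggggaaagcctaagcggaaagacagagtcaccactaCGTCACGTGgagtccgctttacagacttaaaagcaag
Hpgd: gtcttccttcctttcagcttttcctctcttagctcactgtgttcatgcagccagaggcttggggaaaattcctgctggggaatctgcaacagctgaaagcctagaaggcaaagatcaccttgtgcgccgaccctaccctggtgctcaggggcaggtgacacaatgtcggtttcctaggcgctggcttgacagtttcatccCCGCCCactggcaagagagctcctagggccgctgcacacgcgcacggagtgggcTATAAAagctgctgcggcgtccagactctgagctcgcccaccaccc
Ptgs1: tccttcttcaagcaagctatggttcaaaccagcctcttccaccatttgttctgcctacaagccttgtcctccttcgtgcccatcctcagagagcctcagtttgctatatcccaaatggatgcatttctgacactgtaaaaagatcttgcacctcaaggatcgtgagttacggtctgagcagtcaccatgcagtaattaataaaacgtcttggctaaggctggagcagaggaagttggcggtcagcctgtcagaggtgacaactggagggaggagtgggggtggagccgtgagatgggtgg
Motifs were searched on both strands: the cyclic-AMP response core CGTCA, the E-box CACGTG, the C/EBP palindrome TTGCGCAA, the GC box GGGCGG, the TATA motif TATAAA, and the NF-kB site. Positions are counted from the annotated start. In the Ptgs2 window, CGTCA began at base 14 after the start and ran into CACGTG at base 17. TTGCGCAA began 69 bases before the start, and GGGCGG began 170 bases before it. Neither TATAAA nor the NF-kB site was found in the Ptgs2 window. Of 32851 windows of the same length, 20.8% held CGTCA, 7.15% CACGTG, 0.183% TTGCGCAA, 35.7% GGGCGG, 13.6% TATAAA and 8.46% the NF-kB site. Among the 8 members with a window, TTGCGCAA, CGTCA and CACGTG were found in Ptgs2 alone. The Hpgd window held a minus-strand GC box (printed as CCGCCC) beginning 50 bases before the start and TATAAA at base 5 after it; the GENCODE vM21 annotation puts the gene's start at 56294585, inside this window. None of the 6 motifs was in the Ptgs1 window. These matches describe letters only, and no binding was measured.

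Across fibroblast-like cells, 1 cyclooxygenase was far higher in the tumor library and the other lower, the main degrading enzyme was lower, and the synthases of prostaglandin E and prostacyclin were close to level. A gene was called different where tumor and normal summed levels were at least 2-fold apart, the interval of their ratio excluded 1 and either level reached 10 CPM. Of the 9 members, 7 reached that level, of which Ptgs2 and Ptger3 were called higher in tumor cells, Ptgs1 and Hpgd lower, and 3 neither; Ptgds and Ptger2 stayed under 10 CPM. Of all 8966 genes that reached it, 20% were called, 7.32% higher and 12.7% lower. The median log2 ratio was −0.18 over the 7 members and −0.29 over all 8966 genes. The split over all genes was 656 higher and 1137 lower, but 988 higher and 536 lower with totals rescaled by edgeR's TMM method, under which the same 4 members were called.

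**Figure D1:**
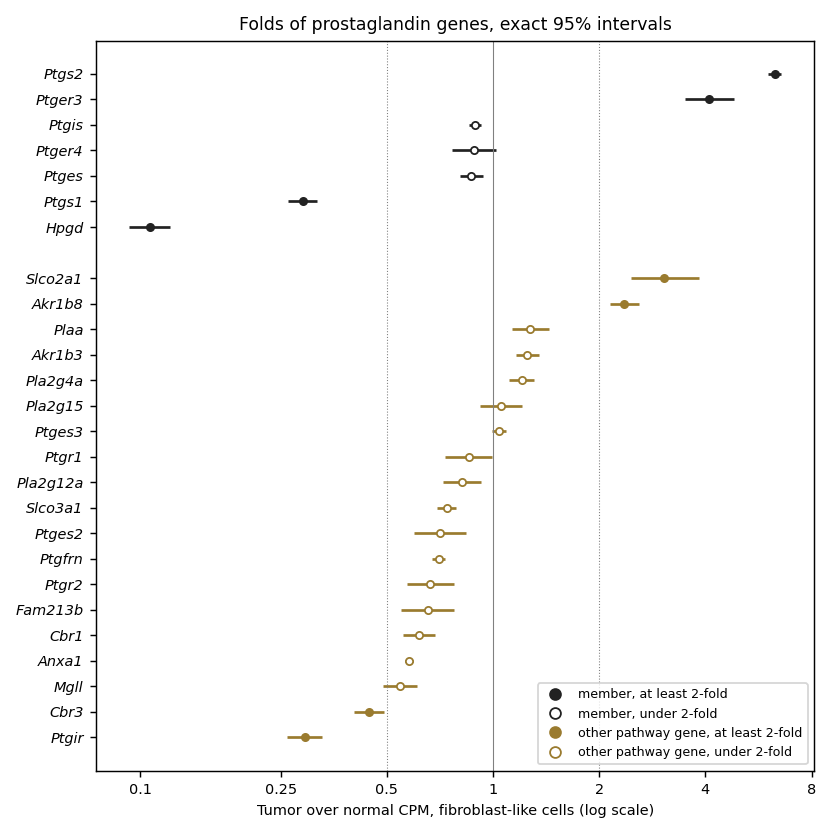
Tumor over normal CPM in fibroblast-like cells (horizontal log axis) for the 7 members and, below them, the 19 other prostanoid genes with at least 10 CPM in either library; points are ratios of summed UMIs, bars exact 95% counting intervals, and dotted lines mark 2-fold. Ptgs2 lies at 6.29 and Hpgd at 0.107, while Ptges, Ptgis and Ptger4 lie just left of 1.

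Ptgs2, the inducible cyclooxygenase (chromosome 1, 150100031 to 150108227), was the most shifted upward of the members that reached 10 CPM. It stood at 995 CPM (984 to 1007) in tumor cells and 158 CPM (152 to 165) in normal cells, from 27829 and 2227 UMIs, a 6.29-fold difference (6.02 to 6.57). The difference lay both in how many cells held the transcript and in how much each held. At least 1 Ptgs2 UMI was seen in 67.9% of tumor cells and 18.6% of normal cells, and in 61.9% of 1833 tumor and 15.5% of 1329 normal cells once each cell was thinned to 5000 UMIs. After thinning, 11.8% of tumor and 1.13% of normal cells held 10 to 19 Ptgs2 UMIs, and 5.35% and 0.602% held 20 or more. Levels in other cell types follow, and the part of free RNA in them was not tested. In the tumor library a Ptgs2 UMI was seen in 5 of 68 lymphatic endothelial-like cells (7.35%, median 8115.5 UMIs) and 2 of 24 T- or NK-like cells (8.33%, median 3587.5 UMIs), and in 0.149% of endothelial-like cells of the normal library (median 3956.5 UMIs). None of 52 tumor or 73 normal B-like cells held one, which allows shares of up to 5.77% and 4.11%.

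**Figure D2:**
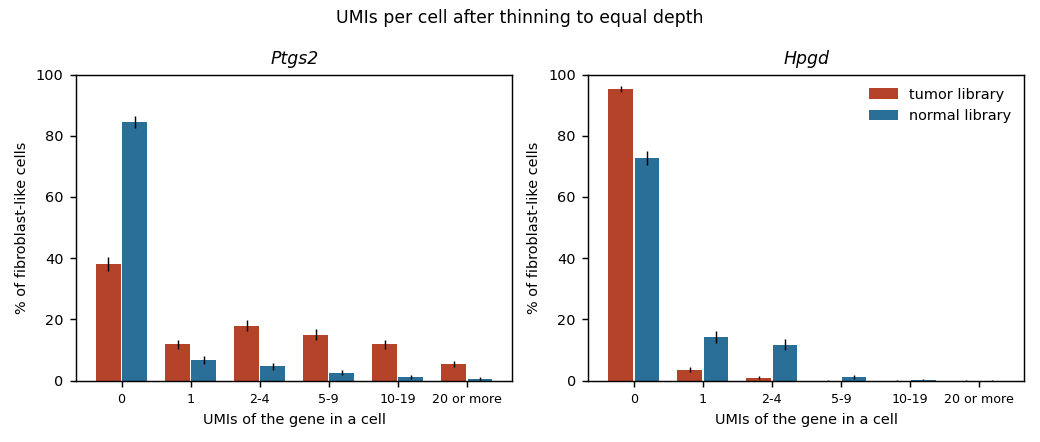
Share of fibroblast-like cells (vertical axis, percent) holding a given number of UMIs of Ptgs2 (left) and Hpgd (right), after each cell was thinned to 5000 UMIs; tumor bars stand left of normal bars and whiskers are exact 95% binomial intervals. Cells without Ptgs2 are 38.1% in tumor and 84.5% in normal, and cells without Hpgd 95.4% and 72.8%.

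Within each library Ptgs2 was unevenly spread. The 219 tumor cells with the most Ptgs2 UMIs held 57.0% of them, with up to 241 in 1 cell, and the 147 richest normal cells held 92.9%, with up to 90 in 1 cell. By cluster, tumor levels were 1219 CPM in the Calca cluster, 900 (877 to 924) in Thbs4, 880 (852 to 909) in Apod and 861 (839 to 882) in Sfrp4, where Apod overlapped both of its neighbours. Normal levels were 354 CPM in the Efhd1 cluster and 37.3 CPM in the Tenm4 cluster, whose cells made up 71.3% of normal fibroblast-like cells. The Efhd1 cluster held 1727 of the 2227 normal UMIs, in 43.5% of its cells. All 4 tumor clusters thus stood above both main normal clusters, by a margin that depends on which normal cluster is taken: the log2 ratio was 2.65 over all clusters, 1.54 without the Tenm4 cluster and 4.20 without the Efhd1 cluster. A few cells crossed the divide. The 27 tumor cells in the Tenm4 cluster had 61.0 CPM (29.3 to 112) of Ptgs2, near the 37.3 CPM of the normal cells there, and in the Sfrp4 cluster the tumor cells had 861 CPM, against 404 CPM (343 to 473) in the 30 normal cells there. Clusters were made from all genes of these cells, so these levels are a description.

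Ptgs2 belongs to the genes that stimulated or dissociated cells switch on within minutes, and other such genes moved with it in part. A list of 22 immediate early and dissociation genes without Ptgs2 is called the immediate early list here. It summed to 28656 CPM in tumor and 17095 CPM in normal fibroblast-like cells. Of the 22, 10 were called higher and 0 lower, where 7.32% of all 8966 genes were called higher and 12.7% lower. The heat shock genes Hspa1a, Hspa1b and Dnajb1 are on the list and were among those called higher. Between clusters Ptgs2 and this list did not run in parallel. The tumor Calca cluster had the highest Ptgs2 level and the lowest immediate early sum of the 4 tumor clusters (19450 CPM, against 29838 in Thbs4, 35222 in Sfrp4 and 37742 in Apod), and that sum was below the 21467 CPM of the normal Efhd1 cluster. The Tenm4 cluster of the normal library had the lowest sum, 13543 CPM. The 27 tumor cells in that cluster had 30863 CPM of the immediate early list with a Ptgs2 level of 61.0 CPM. The part of digestion in the Ptgs2 difference was not tested.

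Ptgs1, the constitutive cyclooxygenase (chromosome 2, 36230426 to 36252272), was lower in tumor fibroblast-like cells, at 25.2 CPM (23.4 to 27.1), against 87.2 CPM (82.4 to 92.3) in normal cells. The ratio was 0.289 (0.263 to 0.317), and 19.7% of tumor and 30.8% of normal cells held a UMI (9.11% and 22.9% after thinning). This difference rested on 1 normal cluster. The tumor clusters had 33.5 CPM in Calca, 29.6 in Sfrp4, 19.8 in Apod and 9.88 in Thbs4, and the larger normal cluster, Tenm4, had 23.2 CPM (20.1 to 26.6), inside that range. The Efhd1 cluster had 207 CPM and held 1008 of the 1228 normal Ptgs1 UMIs. Without the Efhd1 cluster the log2 ratio was 0.060, against −1.79 with it, and the call was lost. Of the 2 main normal clusters, Efhd1 was thus the higher for both Ptgs1 and Ptgs2. Of normal cells with a Ptgs2 UMI after thinning, 42.2% (35.4 to 49.3) also held Ptgs1, against 19.3% (17.1 to 21.8) of cells without Ptgs2. Inside the Efhd1 cluster these shares were 62.8% (53.8 to 71.1) and 56.8% (50.2 to 63.3), with overlapping intervals.

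**Figure D3:**
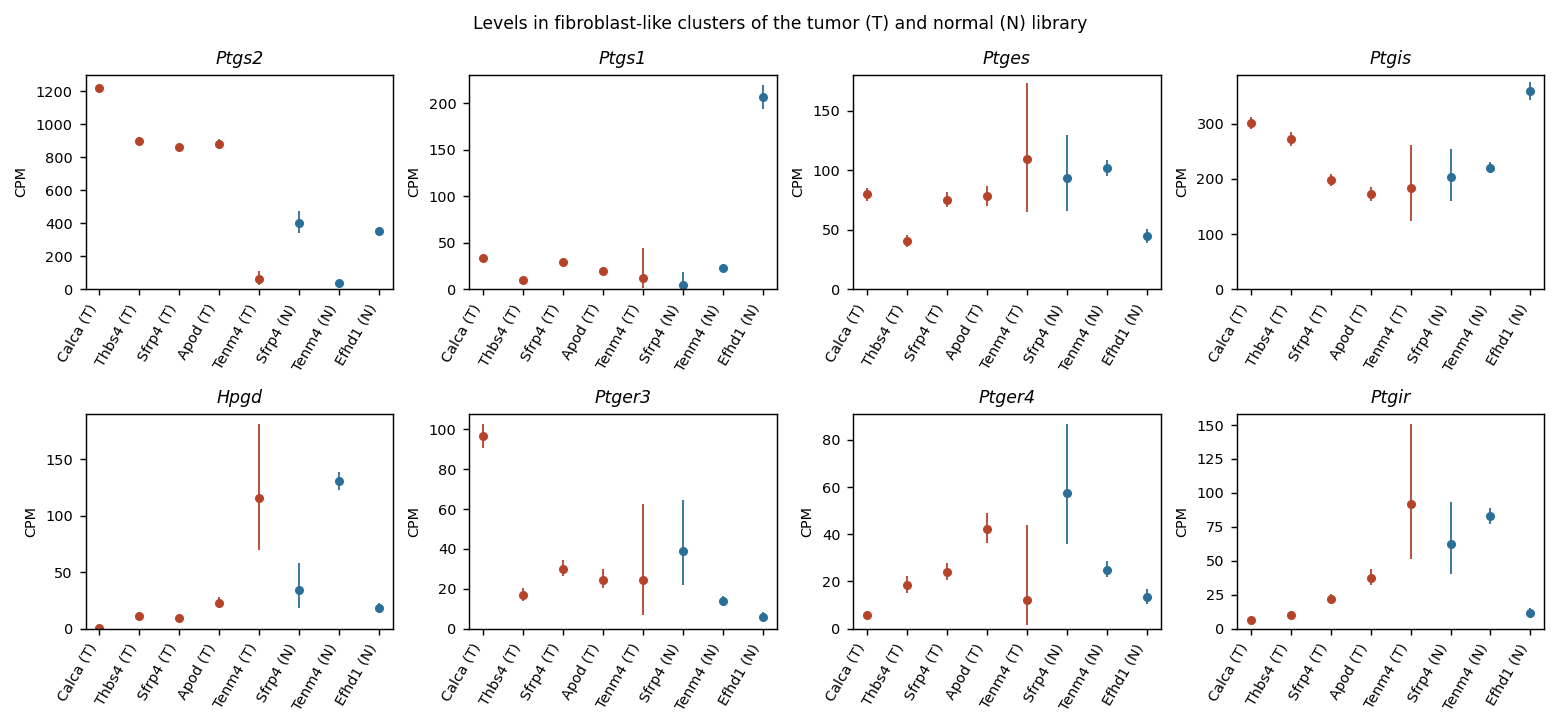
CPM (vertical axes from 0) of 7 members and of the prostacyclin receptor Ptgir in 8 groups of fibroblast-like cells, named by cluster and library (T tumor, N normal), with exact 95% Poisson intervals. Ptgs1 is high in normal Efhd1 cells (207 CPM), Hpgd and Ptgir in Tenm4 cells of both libraries, and Ptger3 in tumor Calca cells (96.5 CPM).

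Ptges and Ptgis, the member synthases of prostaglandin E and prostacyclin, differed little between the libraries. Ptges, the microsomal prostaglandin E synthase that works with Ptgs2 (chromosome 2, 30889471 to 30929863), stood at 69.6 CPM (66.5 to 72.8) in tumor and 80.1 CPM (75.5 to 85.0) in normal fibroblast-like cells, a ratio of 0.868 (0.807 to 0.935). Ptgis, which makes prostacyclin (chromosome 2, 167191805 to 167240604), stood at 248 CPM (242 to 254) in tumor and 279 CPM (270 to 288) in normal cells, a ratio of 0.888 (0.853 to 0.923). Both ratios lie just under 1 and above the median of all genes, and turn to log2 values of 0.13 and 0.16 with TMM scaling. The log2 ratio of Ptges also depended on the clusters, at −0.51 without the Efhd1 cluster and 0.57 without the Tenm4 cluster. No direction is therefore given for either gene. The cells that held Ptgs2 were no richer in Ptges: after thinning, Ptges was seen in 25.02% (22.5 to 27.6) of tumor cells with Ptgs2 and 27.1% (23.8 to 30.5) of tumor cells without it, and in 27.2% (21.2 to 33.8) and 33.3% (30.5 to 36.1) of normal cells. Among the main clusters Ptges was lowest in Thbs4 (40.6 CPM) in the tumor library and in Efhd1 (44.7 CPM) in the normal library. In the Tenm4 cluster it had 110 CPM (65.1 to 174) in 27 tumor and 102 CPM in 1047 normal cells. Ptgis, again among the main clusters, was highest in Calca and Thbs4 (302 and 271 CPM) in the tumor library and in Efhd1 (359 CPM) in the normal library. Ptgds, a prostaglandin D synthase, was barely detected, with 6 UMIs in tumor and 12 in normal fibroblast-like cells, or 0.215 and 0.853 CPM.

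Hpgd encodes 15-hydroxyprostaglandin dehydrogenase, the enzyme that starts prostaglandin breakdown (chromosome 8, 56294585 to 56321043). It stood at 9.37 CPM (8.27 to 10.6) in tumor and 88.0 CPM (83.1 to 93.0) in normal fibroblast-like cells, 9.39-fold lower in tumor (8.21 to 10.8). A UMI was seen in 7.70% of tumor and 35.6% of normal cells, and in 4.58% and 27.2% after thinning. Among tumor clusters Apod had 22.8 CPM (18.5 to 27.8), Thbs4 11.47 and Sfrp4 9.86 CPM. In the Calca cluster, 3 Hpgd UMIs were counted in 384 tumor cells (0.298 CPM, 0.0614 to 0.871), although these cells had the greatest depth of the tumor clusters, with a median of 26201 UMIs. In the normal library the Tenm4 cluster held 1114 of the 1238 UMIs, at 130 CPM (123 to 138), and the Efhd1 cluster had 18.4 CPM (14.8 to 22.7), which overlapped the tumor Apod cells. The 27 tumor cells in the Tenm4 cluster had 116 CPM (69.8 to 181), overlapping the normal cells beside them. Without the Tenm4 cluster in either library the log2 ratio shrank to −1.36 and the call stayed.

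Hpgd and Ptgs2 stood at opposite ends of the 6 main clusters: tumor Calca cells were lowest in Hpgd and highest in Ptgs2, and normal Tenm4 cells highest in Hpgd and lowest in Ptgs2. Within a library the 2 transcripts were shared by few cells. After thinning, Hpgd was seen in 3.96% (2.91 to 5.27) of tumor cells with Ptgs2 and 5.59% (4.003 to 7.56) of those without, and in 17.0% (12.1 to 22.8) and 29.1% (26.5 to 31.9) of normal cells. Inside the normal Tenm4 cluster the shares were 33.3% (22.2 to 46.0) and 36.2% (33.0 to 39.6), with overlapping intervals.

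Of the receptors, Ptger3, an inhibitory prostaglandin E receptor (chromosome 3, 157566892 to 157645888), was higher in tumor fibroblast-like cells, at 50.1 CPM (47.5 to 52.8), against 12.2 CPM (10.5 to 14.2) in normal cells. The ratio was 4.10 (3.50 to 4.84), and a UMI was seen in 23.8% of tumor and 9.53% of normal cells, or 15.1% and 5.64% after thinning. The Calca cluster held 972 of the 1402 tumor UMIs, at 96.5 CPM, while the other 3 main tumor clusters had 16.9 to 30.1 CPM and the 2 main normal clusters 13.7 (Tenm4) and 5.74 CPM (Efhd1). Without the Calca cluster the log2 ratio was 1.06, against 2.04 with it, and the call stayed. Ptger2, a receptor that raises cyclic AMP (chromosome 14), was rare, with 82 UMIs in tumor and 7 in normal fibroblast-like cells (2.93 and 0.497 CPM). Of these tumor UMIs 70 lay in the Calca cluster, the most deeply sequenced. Without that cluster the log2 ratio of Ptger2 was 0.41, against 2.56 with it.

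Ptger4, the other cyclic AMP-raising receptor (chromosome 15, 5206661 to 5244187), stood at 19.1 CPM (17.5 to 20.8) in tumor and 21.6 CPM (19.2 to 24.2) in normal fibroblast-like cells, a ratio of 0.883 (0.765 to 1.02) whose interval includes 1. Under similar totals the tumor clusters differed, and the Calca cluster, highest for Ptger3, was lowest for Ptger4. Ptger4 had 42.3 CPM in Apod, 24.1 in Sfrp4, 18.5 in Thbs4 and 5.96 in Calca cells, against 25.04 in normal Tenm4 and 13.3 in normal Efhd1 cells. Ptgir, the prostacyclin receptor, is not 1 of the 9 members and ordered the 4 tumor clusters as Ptger4 did: 37.4 CPM in Apod, 21.5 in Sfrp4, 10.4 in Thbs4 and 6.45 in Calca tumor cells, against 82.7 in Tenm4 and 11.5 in Efhd1 normal cells.

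Outside the members, 32 of 33 listed genes of prostanoid biology were found and 19 reached 10 CPM in fibroblast-like cells. Of these 19, 2 were called higher in tumor cells, 2 lower and 15 neither, with a median log2 ratio of −0.44; the shares called over all genes are those given above. Slco2a1, the prostaglandin uptake transporter, stood at 21.1 CPM in tumor and 6.89 CPM in normal cells, 3.06-fold higher (2.46 to 3.83). Akr1b8, an aldo-keto reductase, stood at 92.2 and 39.1 CPM, 2.35-fold higher in tumor (2.15 to 2.59). On the lower side, Ptgir stood at 16.5 CPM in tumor and 56.3 CPM in normal cells, a ratio of 0.292 (0.260 to 0.328), and Cbr3, a carbonyl reductase, at 28.0 and 62.9 CPM, a ratio of 0.445 (0.404 to 0.491). None of the 6 upstream genes that reached 10 CPM was called. Mgll, a monoacylglycerol lipase, came close, at 23.2 CPM in tumor and 42.6 CPM in normal cells, and was called lower with doublets kept, with cells weighted equally, in Pdpn-positive cells, without the Calca or the Tenm4 cluster and with pericyte-like cells added. Anxa1, at 411 and 712 CPM, was called lower in Pdpn-positive cells and without the Tenm4 cluster. The uncalled genes include Pla2g4a, the cytosolic phospholipase that frees arachidonic acid, with 72.0 CPM in tumor and 59.8 CPM in normal cells. The 4 calls depended on the setting: Ptgir was lost without the Tenm4 cluster, Slco2a1 without the Tenm4 cluster and at a minimum of 50 CPM, Akr1b8 without the Tenm4 or the Calca cluster and with cells weighted equally, and Cbr3 with TMM or median-ratio scaling, with cells weighted equally and without the Calca cluster.

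Markers of other cell types were low in these sums. Macrophage markers (12 genes) summed to 14.0 CPM in tumor and 100 CPM in normal fibroblast-like cells, against 16249 and 30654 CPM in macrophage- or monocyte-like cells. Endothelial markers (11 genes) summed to 42.7 CPM in tumor and 173 CPM in normal fibroblast-like cells, against 17273 CPM in normal endothelial-like cells. All 6 mast cell markers were at 0 in both. Acinar markers summed to 63.8 and 548 CPM. Sex of cells was also set beside the result, as a comparison chosen after the data were seen: in the normal library, 483 fibroblast-like cells with Xist and no Y-linked UMI and 758 with the reverse had 109 and 197 CPM of Ptgs2, 53.5 and 115 CPM of Ptgs1, and 54.1 and 98.2 CPM of Hpgd. The Efhd1 cluster held 94 of the 483 and 247 of the 758, and the Tenm4 cluster 369 and 486. Against the 483 Xist cells alone, the tumor log2 ratios were 3.19 for Ptgs2, −1.09 for Ptgs1, −2.53 for Hpgd and 2.07 for Ptger3, and all 4 calls held.

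Each member had its own distribution over cell classes. Ptgs2 was highest in macrophage- or monocyte-like cells of the tumor library at 1904 CPM (1787 to 2026, 53 cells), then in tumor fibroblast-like cells at 995 CPM. Lower came 24 tumor T- or NK-like cells at 226 CPM, 25 of whose 26 UMIs lay in 1 cell, and normal fibroblast-like cells at 158 CPM; these 2 intervals overlap. The fibroblast list summed to 3998 CPM in these T- or NK-like cells, and its part in their Ptgs2 level was not tested. Normal macrophage- or monocyte-like cells had 50.3 CPM (46.4 to 54.5), tumor lymphatic endothelial-like cells 18.4 CPM and normal endothelial-like cells 0.702 CPM. Ptgs1 followed another order, with normal endothelial-like cells first at 178 CPM (167 to 189), and macrophage- or monocyte-like cells at 134 CPM (105 to 170) in tumor and 145 CPM (139 to 152) in normal, intervals that overlap. Within normal endothelial-like cells Ptgs1 had 394 CPM in the Vwf cluster, 185 (173 to 198) in the Car4 cluster and 19.9 in the Gja5 cluster. Within normal macrophage- or monocyte-like cells it had 235 CPM (219 to 251) in Marco, 121 in Clec10a and 75.7 in Ear2. The Marco cluster thus stood above the Car4 cluster.

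**Figure D4:**
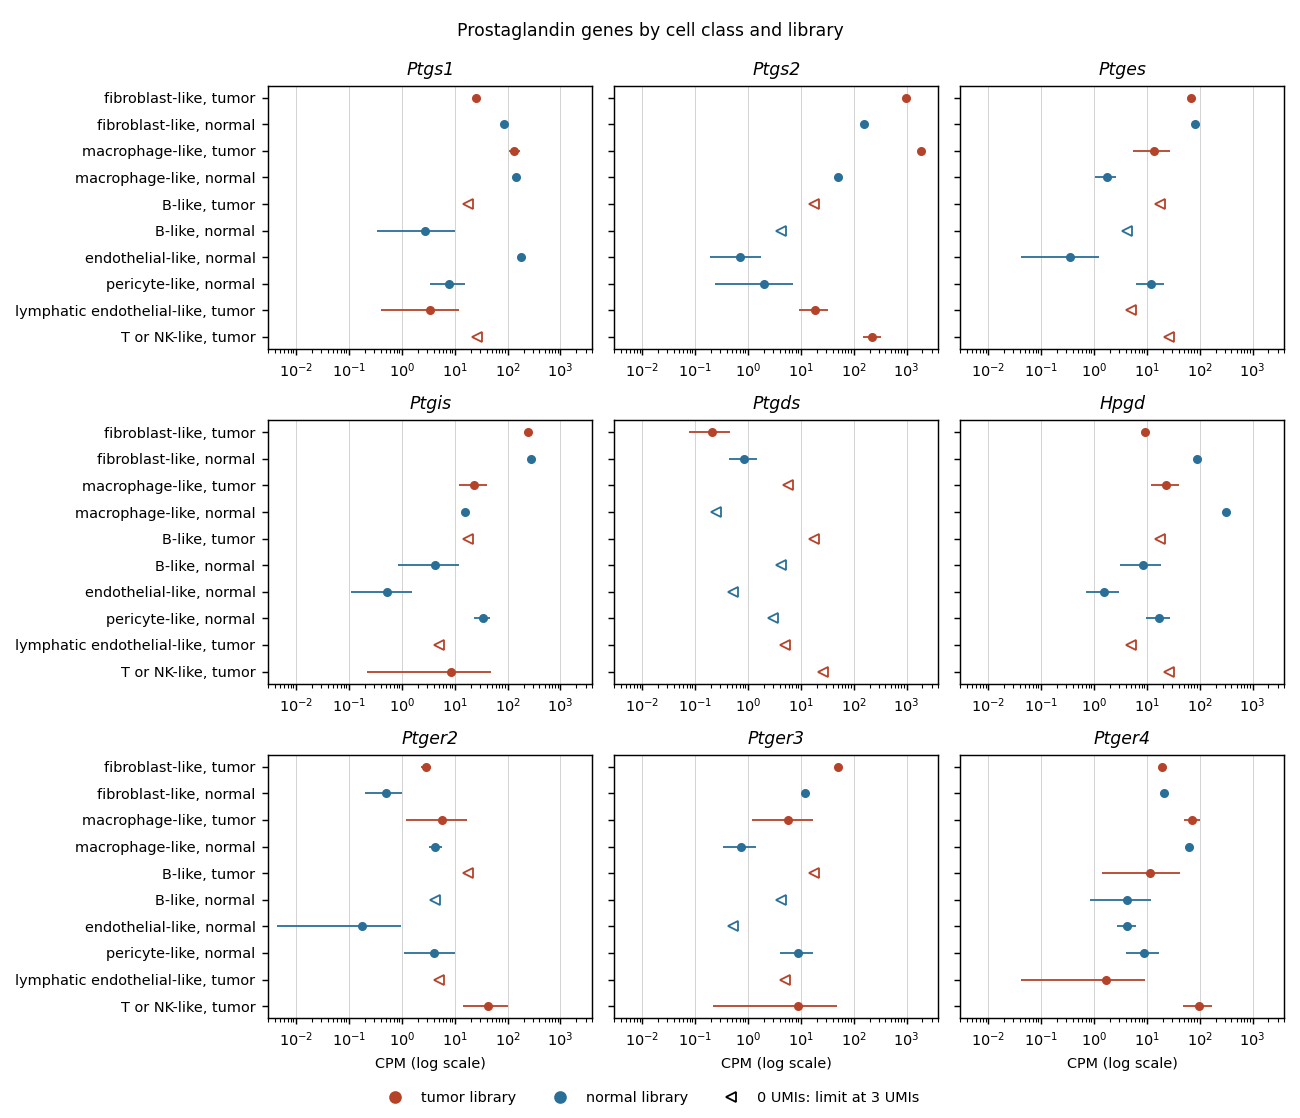
CPM (horizontal log axes) of the 9 members in each cell class with at least 20 cells, tumor in red and normal in blue, with exact 95% Poisson intervals; open triangles mark 0 UMIs and stand at the level of 3 UMIs. Ptges and Ptgis are highest in fibroblast-like cells of both libraries, Ptgs1 also in normal endothelial-like cells (178 CPM) and Hpgd in normal macrophage-like cells (312 CPM).

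By class, Ptges and Ptgis were mostly found in fibroblast-like cells. In the other named classes with at least 20 cells, Ptges reached at most 13.4 CPM (5.41 to 27.7), in 53 tumor macrophage- or monocyte-like cells, and Ptgis at most 33.9 CPM (23.5 to 47.4), in normal pericyte-like or smooth muscle-like cells. Single clusters stood above these class levels. Ptgis had 41.3 CPM in the normal macrophage-like Marco cluster and 56.5 CPM in the normal smooth muscle-like Myh11 cluster. A finer clustering of the same cells gave a macrophage- or monocyte-like cluster led by Alox15, described below. Its UMIs can include those of the Marco cluster. In its 38 normal cells Ptgis had 246 CPM, in 24 cells. That is near the level of fibroblast-like cells. Endothelial-like cells, often named as a source of prostacyclin, had 0.526 CPM of Ptgis, from 3 UMIs in 1346 cells. Ptger3 also peaked in fibroblast-like cells, and had 0 UMIs in normal endothelial-like cells (3 UMIs would be 0.526 CPM). Ptger4 was higher in macrophage- or monocyte-like cells, at 73.0 CPM (51.7 to 100) in tumor and 61.9 CPM (57.6 to 66.5) in normal, than in fibroblast-like cells, and 24 tumor T- or NK-like cells had 95.8 CPM (47.8 to 171). Ptger2 was also seen in these T- or NK-like cells, at 43.5 CPM (14.1 to 102) from 5 UMIs.

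Hpgd was highest in normal macrophage- or monocyte-like cells, at 312 CPM (302 to 322), above the normal fibroblast-like cells at 88.0 CPM. The Clec10a cluster had 439 CPM and a UMI in 85.1% of 733 cells, the Ear2 cluster 308 CPM in 329 normal cells, and the Marco cluster 117 CPM in 337 cells. Macrophages also carried 2 terminal synthases that were near 0 in fibroblast-like cells: Hpgds, which makes prostaglandin D, had 57.6 CPM in tumor and 127 CPM in normal cells, and Tbxas1, the thromboxane synthase, 138 and 174 CPM. Slco2a1 was highest in normal endothelial-like cells, at 101 CPM, and there in the Vwf cluster, at 763 CPM in 54 cells. The thromboxane receptor Tbxa2r had 63.2 CPM in normal endothelial-like cells, and Ptgir 51.9 CPM in normal pericyte-like or smooth muscle-like cells.

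The Ear2 cluster, monocyte-like cells that also carry Ccr2, was the only macrophage- or monocyte-like cluster with at least 20 cells in each library, 50 tumor and 329 normal. There, Ptgs2 had 2029 CPM (1905 to 2159) in tumor and 73.9 CPM in normal cells, 27.5-fold higher (23.6 to 32.1). It was seen in 32 of 50 tumor and 30 of 329 normal cells, and 5 tumor cells held 53.2% of the tumor UMIs. Hpgd had 20.5 CPM (9.82 to 37.7) in tumor and 308 CPM (288 to 330) in normal cells, 15.04-fold lower (8.14 to 31.5). Ptgs2 was thus higher and Hpgd lower in the tumor cells of this cluster. Its tumor and normal cells were largely different cells, as described below, so these ratios do not compare 1 cell type. Of 7 members with at least 10 CPM here, 4 were called higher and 1 lower, where 12.7% of all 8222 genes were called higher and 11.4% lower (24.1% in all). Ptger4 was among the higher ones, at 71.7 CPM in tumor and 29.99 CPM in normal cells, a ratio of 2.39 (1.56 to 3.59), while the other pair, Ptges and Ptgis, rested on 6 and 12 tumor UMIs. The immediate early list was lower in the tumor cells of this cluster, at 14848 CPM, against 20332 CPM in its normal cells.

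Neutrophil markers stood apart in this cluster, with the 6 listed genes summing to 9486 CPM in tumor and 231 CPM in normal cells. In 10 tumor cells and 1 normal cell the neutrophil list had more UMIs than the macrophage list. These 10 cells were shallow (median 2110 UMIs) and held 58 of the 991 tumor Ptgs2 UMIs. Without them, a comparison chosen after the data were seen, Ptgs2 had 2030 CPM in 40 tumor and 71.4 CPM in 328 normal cells, 28.4-fold higher (24.3 to 33.4), and Hpgd was 14.2-fold lower (7.68 to 29.7).

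The tumor and normal cells of the Ear2 cluster were largely different cells. At a Leiden resolution of 1, 45 of its 50 tumor cells but 6 of its 329 normal cells fell into 1 finer cluster. That cluster was led by Alox15 and Arg1, without Ear2 or Ccr2 among its 10 leading genes, and held 38 normal cells in all. Inside that finer cluster, a comparison chosen after the data were seen, Ptgs2 had 2130 CPM in tumor and 363 CPM in normal cells, 5.87-fold higher (4.96 to 6.99), seen in 30 of 45 tumor and 13 of 38 normal cells. Hpgd had 8.94 CPM in tumor and 45.6 CPM in normal cells, 5.11-fold lower (1.71 to 20.5), from 4 and 20 UMIs. Ptgs2 was higher and Hpgd lower in tumor cells there, with smaller ratios, but only 6 of the 38 normal cells were Ear2 cells. These ratios thus set the tumor cells mainly against normal cells of other clusters. The 38 normal cells held 108 Ptgis UMIs, where the normal Ear2, Clec10a and Marco clusters held 8, 33 and 151. Ptger4 was not called there, at 60.3 CPM in tumor and 52.5 CPM in normal cells (ratio 1.15, 0.635 to 2.10). Ptges and Ptgis were not higher there. Neutrophil markers there summed to 10341 CPM in tumor and 1383 CPM in normal cells, and their part in these ratios was not tested.

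For 7 members, the genes whose levels were most alike were found by Pearson correlation of log2(CPM + 1) over 9 class-by-library sums with at least 50 cells, among 8989 genes. The sums share 2 libraries and differ in depth, so these values are a description. Nearest to Ptgs2 were Gpnmb (r = 0.97), Lif (0.96) and Por (0.96), and to Hpgd Abca9 (0.97), Rab7b (0.94) and Stx4a (0.93). Ptgs1 was most like Hfe (0.94), Hacd4 (0.93) and Gda (0.93). Closer still were the neighbours of 3 members high in fibroblast-like cells: Ptges had Gsta3 (0.99), Cxcl14 (0.99) and Cercam (0.98), Ptgis had Lpar1 (0.99), Penk (0.98) and Svep1 (0.98), and Ptger3 had Gpc1 (1.00), Ror1 (0.98) and Ptprs (0.97). Ptger4 was most like Emilin2 (0.95), Tmem106c (0.94) and Scamp5 (0.93).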

How the data were processed

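The authors deposited 1 matrix of raw UMI counts per gene and barcode for each library, made with Cell Ranger 3.1.0 on mm10 per the submitters' processing notes, not normalized; the barcode lists held 2942 tumor and 5437 normal cells. The members and gene lists were chosen with earlier results of these data known. Barcodes under 500 genes or 1000 UMIs, or over 10% mitochondrial UMIs, were dropped. Scrublet's threshold marked 0.0777% of the tumor library, so the 53 cells with the highest scores were removed there; in the normal library it removed 101 cells. Cells were clustered jointly without batch correction (scanpy 1.11.5, 2000 variable genes, 30 components, 15 neighbours, Leiden resolution 0.5). Clusters were named from marker lists. An unnamed cluster (105 tumor and 31 normal cells) stayed out of the classes. UMIs were summed per library and class as CPM, with exact Poisson, Clopper-Pearson and Poisson-ratio intervals; a count of 0 allows 3 counts. Without replicates no test was made. For shares given as after thinning, fibroblast-like cells were thinned to 5000 UMIs, which left out 361 tumor and 140 normal cells. All other shares, including those of other cell classes, are of unthinned cells and vary with depth. Depth was 33285044 UMIs in the tumor and 36675424 in the normal library. Named genes were the members, the prostanoid list with at least 10 CPM in any class, leading cluster genes and, per member, the 3 genes most like it. Alternatives covered cell filters, doublets, resolution, scaling (edgeR 4.0.16 TMM, median ratios), cell weights, thinning, Pdpn-positive cells, single clusters left out, minimum level and fold; calls were checked on simulated counts. Promoter letters came from RefSeq on GRCm38.p6, with windows for 8 of 9 members, and gene positions from GENCODE vM21 on GRCm38.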

Additional observations from a re-analysis of the deposited data

Results flagged for a closer look

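In the Ear2 monocyte-like cluster, 3 members had a tumor over normal ratio on the other side of 1 from fibroblast-like cells: 1.65 (1.22 to 2.20) for Ptgs1, 11.2 (2.39 to 69.2) for Ptges and 8.40 (3.16 to 23.7) for Ptgis, against 0.289, 0.868 and 0.888 in fibroblast-like cells. These differences between cell types were not tested. All 3 depend on the setting. The finer Alox15 cluster held 45 tumor and 38 normal cells, and only 6 of these normal cells came from the Ear2 cluster. Inside it the ratios were 0.562 (0.40 to 0.784) for Ptgs1, 0.326 (0.00622 to 4.07) for Ptges and 0.0907 (0.0423 to 0.173) for Ptgis. In fibroblast-like cells Ptges and Ptgis turned to log2 ratios of 0.13 and 0.16 with TMM scaling, and Ptgs1 to 0.060 without the Efhd1 cluster. The Ptges and Ptgis ratios of the Ear2 cluster rest on 6 and 12 tumor UMIs against 3 and 8 normal UMIs. The 23 fibroblast markers summed to 952 CPM in the tumor and 441 CPM in the normal cells of that cluster, and their part in these ratios was not tested.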

How the results depend on the processing

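Over 18 alternatives, Ptgs2 and Ptger3 stayed called higher and Hpgd lower, with log2 ratios from 1.54 to 4.20, from 1.06 to 2.38 and from −3.73 to −1.36. Ptgs1 stayed called lower in 17 and reversed in 1, to 0.060 without the Efhd1 cluster. Ptges, Ptgis and Ptger4 stayed uncalled in all 18 and changed sign in 3, 3 and 6. The number of members called was 4, against 3 without the Efhd1 cluster and 6 with no minimum level, where Ptgds and Ptger2 join. In the prostanoid list 4 genes were called, 7 with no minimum level and 9 at 1.5-fold, since more genes can then be called. It was 3 with TMM or median-ratio scaling, equal cell weights, no Calca cluster or a minimum of 50 CPM, and 6 in Pdpn-positive cells. Without the Tenm4 cluster 0 were higher and 4 lower (Anxa1, Cbr3, Mgll and Slco3a1). In the finer Alox15 cluster, where only 6 of the 38 normal cells came from the Ear2 cluster, Ptgs1 and Ptgis had ratios of 0.562 and 0.0907. Both were above 1 in the Ear2 cluster. Ptges had 1 tumor and 3 normal UMIs in the finer cluster, too few for a direction. The 18 alternatives include a comparison with Xist-only normal cells and the addition of the unnamed cluster. Both were chosen after the data were seen, and all 4 member calls held under both. No paired analysis was possible because each group is 1 library. Depth limits Ptgds and Ptger2, the Ear2 cluster's 50 tumor cells and the small classes of the tumor library, and the spread between mice cannot be estimated.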

Other observations

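The unnamed cluster, led by Onecut2, fell outside all classes and mixed keratin genes (Krt18, Krt8, Krt7, Krt19) with cycling genes (Top2a, Prc1, Ube2c). At a Leiden resolution of 1 a ductal-like cluster of 42 tumor and 0 normal cells and a Top2a-led cycling cluster of 77 tumor and 33 normal cells stood apart, so its tumor and normal cells are not one cell type and are given side by side only. Its 105 tumor cells had 286 CPM (264 to 309) of Ptgs2, in 38.1% of cells, with up to 242 UMIs in 1 cell, 0.897 CPM of Hpgd and 8.97 CPM of Ptgs1. Its 31 normal cells had 114 CPM (81.2 to 156) of Ptgs2, in 2 cells, 135 CPM (98.7 to 180) of Hpgd and 185 CPM (142 to 236) of Ptgs1, with 49.8 CPM of Tbxas1 and 20.5 CPM of Hpgds, which were high in macrophage-like cells.

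Another 17 normal cells clustered with the tumor Calca cells but carried all 7 mesothelial markers. These markers summed to 163 CPM in the 384 tumor cells of that cluster and to 6291 CPM (Upk3b 2309 CPM) in the 17 normal cells. Stricter cell filters and a Leiden resolution of 1 set 16 and 17 normal cells apart as mesothelial-like, and the 4 member calls held under both. These 17 cells had 874 CPM (760 to 1001) of Ptgis, with a UMI in all 17, and 83.7 CPM (51.1 to 129) of Ptgs2. They had 0 Ptges UMIs and held all 12 Ptgds UMIs of the normal fibroblast-like class.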
